A study of Mus musculus with 2 samples.

Results

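The genes described here encode the liver hormone hepcidin and the proteins that control it, carry iron, take it up, store it and release it. They were listed by name as Hamp, Hamp2, Bmp6, Hfe2, Hfe, Tfr2, Tfrc, Trf, Slc40a1 and Fth1, and each was found on the array through the transcript identifier of its probes. Hfe2 stands in the reference table under its current symbol Hjv. All 10 were found, among 20648 gene names in all, with 13 of the 39402 probes that are not controls. The values come from mouse liver RNA on 2 Agilent arrays with a single dye, 1 array for fasting and 1 for feeding. Each array held the livers of 3 male mice pooled. With a single array per group, no difference between groups could be tested, and values are set beside technical spreads only. Per the study's methods its mice were C57BL/6J or on that background, and the labels give no genotype, knockout or drug for these pools. The fast lasted 16 h by the sample description and 14 to 16 h by the treatment protocol. For the feeding pool they state both free access to food and a meal after the fast, and no time between meal and sampling.

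Iron leaves cells through ferroportin, the only known iron exporter, encoded by Slc40a1. Hepcidin, made by hepatocytes, binds ferroportin and causes its removal from the membrane, so that less iron reaches the plasma. Hepcidin transcription is driven by BMP6 from sinusoidal endothelial cells, with hemojuvelin (Hfe2), HFE and transferrin receptor 2 as partners on the hepatocyte, and by interleukin 6 through STAT3. Transferrin carries iron in plasma and transferrin receptor 1 (Tfrc) takes it into cells. The stability of Tfrc mRNA and the translation of ferritin mRNA depend on iron regulatory proteins, which bind RNA when iron in the cell is low.

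Tfrc had the largest difference of the 10 genes. Its normalized signal was 1687 upon fasting and 3357 upon feeding, which is 0.99 higher on the log2 scale or 1.99-fold, just under the 2-fold threshold of the study's methods. The other 9 genes differed by less than 1.5-fold. Among them Slc40a1 (0.32) and Hamp (0.27) were higher upon feeding, while Hamp2 (-0.29), Hfe (-0.22) and Hfe2 (-0.21) were lower. Bmp6, Trf and Fth1 differed by less than the spread of replicate spots. With 0 of 10 past 2-fold, the genes stand beside a background of 7.89% of the 16343 genes measured, of which 3.27% were at least 2-fold higher and 4.62% at least 2-fold lower upon feeding. The median difference of the 10 was -0.0014, and that of all genes measured was 0.0, with quartiles of -0.25 and 0.27. Of all genes measured 78.9% differed by less than 1.5-fold.

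On both arrays every probe of these genes was well above background, and 0 spots on either array were saturated. Upon fasting 63.1% and upon feeding 72.3% of all transcript spots passed that mark. The processed signal, a background-subtracted intensity, was put on the log2 scale and quantile normalized between the arrays, and differences are feeding minus fasting. For probes spotted 10 times, the SD of the difference of a spot pair was taken in 3 classes of brightness. It was 0.06 in the brightest, which holds 9 of the 10 genes, 0.08 in the middle class, which holds Bmp6, and 0.20 in the dimmest. The error that Feature Extraction itself attaches to single spots gives 0.20 for the difference of a bright probe. Neither measure includes differences between mice. Signals of different probes depend on the probe and are not compared with each other. The liver label was checked with 8 hepatocyte genes, all measured on both arrays, among them Alb, with a signal of 151264 upon fasting and 144433 upon feeding.

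**Figure D1:**
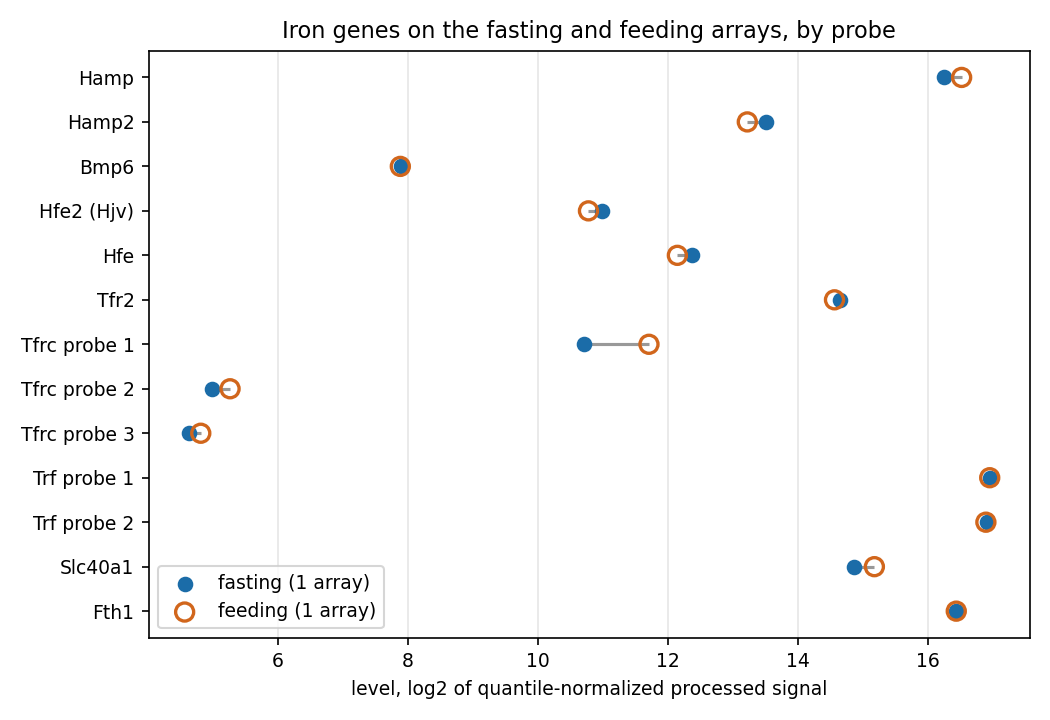
Levels of the 10 genes by probe, as log2 of the quantile-normalized processed signal, with filled points for the fasting array and open circles for the feeding array (1 array each). The points of the first Tfrc probe lie 0.99 apart and those of Bmp6, Trf and Fth1 overlap, while positions along the axis are not comparable between probes.

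Hamp encodes hepcidin, and Hamp2 is the second copy of the gene that mice carry, whose product is not known to control iron. They lie on chromosome 7, where 1 annotated gene, the pseudogene Usf2-ps1, stands between them in the reference table. The promoters show how alike the copies are, and where a known response element of Hamp has no match in Hamp2. The 250 bases before each start, from RefSeq on GRCm38.p6, are printed with the letters GGCGCC (the core of the BMP-responsive element) and TTCNNNGAA (the STAT site) in capitals. Matches were searched on both strands, and no match of one overlapped the other. The Tfrc window before the more upstream of the gene's annotated starts is shown with them, since Tfrc has the largest difference and this window holds a match too.
Hamp promoter, chr7:30944030-30944279, minus strand: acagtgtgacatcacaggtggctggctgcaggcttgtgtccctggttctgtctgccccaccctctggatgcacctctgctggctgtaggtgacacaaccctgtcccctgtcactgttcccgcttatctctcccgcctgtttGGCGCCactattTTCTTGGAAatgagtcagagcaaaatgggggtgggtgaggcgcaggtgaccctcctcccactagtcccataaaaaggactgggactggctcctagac
Hamp2 promoter, chr7:30924182-30924431, minus strand: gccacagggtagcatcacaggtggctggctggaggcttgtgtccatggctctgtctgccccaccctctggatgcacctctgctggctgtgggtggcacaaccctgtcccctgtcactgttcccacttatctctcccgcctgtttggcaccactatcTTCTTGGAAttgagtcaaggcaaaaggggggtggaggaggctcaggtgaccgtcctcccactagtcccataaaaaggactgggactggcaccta
Tfrc promoter, chr16:32608646-32608895, plus strand: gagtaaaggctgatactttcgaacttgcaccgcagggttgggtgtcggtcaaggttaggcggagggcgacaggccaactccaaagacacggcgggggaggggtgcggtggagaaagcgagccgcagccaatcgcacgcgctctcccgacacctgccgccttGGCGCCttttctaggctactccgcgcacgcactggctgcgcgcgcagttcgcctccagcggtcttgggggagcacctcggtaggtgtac

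In a global alignment 89.7% of 253 positions of the Hamp and Hamp2 windows were identical. The GGCGCC match of Hamp lies 109 to 104 bases before the start and its TTCNNNGAA match 97 to 89 bases before it. Hamp2 has the TTCNNNGAA match, 94 to 86 bases before its start, and no GGCGCC in this window. Tfrc has GGCGCC 89 to 84 bases before the more upstream of its annotated starts, and no TTCNNNGAA. The Tfrc window at the other annotated start had neither motif. The RefSeq promoter table held 7 of the 10 genes in 11 windows, without Trf, Slc40a1 and Hfe2, and the other windows of these 7 genes had neither motif. Bmp6 had CACGTG, a form of the E-box that none of the other windows had. Other forms of the E-box were not searched for. Of all 32851 promoter windows of this length 9.59% hold GGCGCC, 7.02% TTCNNNGAA and 6.02% CACGTG. A match of letters says nothing of binding, which was not measured.

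On the Hamp probe the processed signal reached 80238 upon fasting and 90349 upon feeding. After normalization these became 78107 and 94267, a difference of 0.27 or 1.21-fold. Hamp was thus somewhat higher upon feeding after normalization, past the replicate-spot SD of 0.06 and the software's error of 0.20. Before normalization its difference was 0.17, under that error. Of the 10 genes only 1, Tfrc, was past 2 times the error. The normalized Hamp difference was reached or passed by 24.7% of all genes measured. The Hamp2 probe had 11760 upon fasting and 9527 upon feeding, normalized to 11710 and 9582, a difference of -0.29 or 1.22-fold lower. Hamp2 was at -0.07 under scaling by the median, close to the SD of 0.06 and within the software's error of 0.20. Under quantile normalization the copies thus stood on opposite sides of 0, with Hamp 0.56 above Hamp2 in its difference. The size of this contrast moved with the processing. It was 0.48 with the arrays scaled by 1 factor each and 0.62 after the normexp background correction. The SD of such a contrast of single spots was 0.09. That SD leaves out the software's error, which is 0.20 for each probe's difference and was not carried over to the contrast. The probe letters were not used here, so how far each probe reads its own copy alone was not tested. Hepcidin also belongs to the acute phase response, and of 10 other genes of that response, all measured, 6 were above 0 and 4 below, with a median of 0.07 (0.28 under scaling by the median). Saa1, a serum amyloid A gene, had 15217 upon fasting and 28118 upon feeding, a difference of 0.89, and Saa2 had 16188 and 31593, a difference of 0.96. Saa2 was past 2-fold with a common 75th percentile (1.03) and both with a common median (1.08 and 1.16), and the values of such close copies are uncertain. Il1rn, on a dim probe, was past 2-fold in the other direction at -1.37 (-0.62 after the normexp correction). Crp (-0.43), Lbp (-0.42) and Saa3 (-0.38) were lower too. Apcs was at 0.59, Itih4 at 0.11, Orm2 at 0.08 and Orm1 at 0.07. The part of this response in the value of Hamp was not tested.

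The ligand and the hepatocyte proteins upstream of hepcidin differed little. Bmp6, the endothelial ligand, had a normalized signal of 237.1 upon fasting and 236.6 upon feeding, and its processed signals were 252.4 and 222.1. At its spot the local background was 49.0 upon fasting and 24.0 upon feeding. Bmp6 thus showed no difference larger than that of replicate spots, and its sign changed with the scaling, from -0.08 to 0.05. Hfe2, the BMP co-receptor, had 2036 upon fasting and 1761 upon feeding, a difference of -0.21. Hfe, the partner of both transferrin receptors, had 5296 and 4545, a difference of -0.22. Both differences are past the SD of replicate spots and close to the software's error of 0.20, and they shrank to -0.01 for Hfe2 and -0.02 for Hfe with each array scaled by its median. Tfr2, the sensor of iron-loaded transferrin on hepatocytes, had 25677 upon fasting and 24288 upon feeding, a difference of -0.08 that became 0.13 with scaling by the median.

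Tfrc, the receptor that brings transferrin-bound iron into cells, is the only one of these genes with a probe spotted 10 times, so its difference rests on more than single spots. In the 8 spots that were not outliers on either array, the processed signal ran from 1673 to 1772 upon fasting, with a median of 1706, and from 3153 to 3575 upon feeding, with a median of 3323. The values of the arrays did not overlap. The mean difference of these spots before normalization was 0.95 ± 0.06 (SD, n = 8 spots), with 0.87 the lowest and 1.04 the highest. These spots share the pooled RNA of each array and are no replicates of feeding. The 2 outlier spots were also higher upon feeding, by 0.70 and 1.02. Quantile normalization added 0.04, which gives the 0.99 of the comparison, and 3.34% of all genes measured were higher by at least as much. Tfrc was past 2-fold with the arrays set to a common 75th percentile (1.06) or a common median (1.19), and not after the normexp correction (0.94). On which side of 2-fold it lies is thus set by the scaling, while the direction was the same in all of these.

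**Figure D2:**
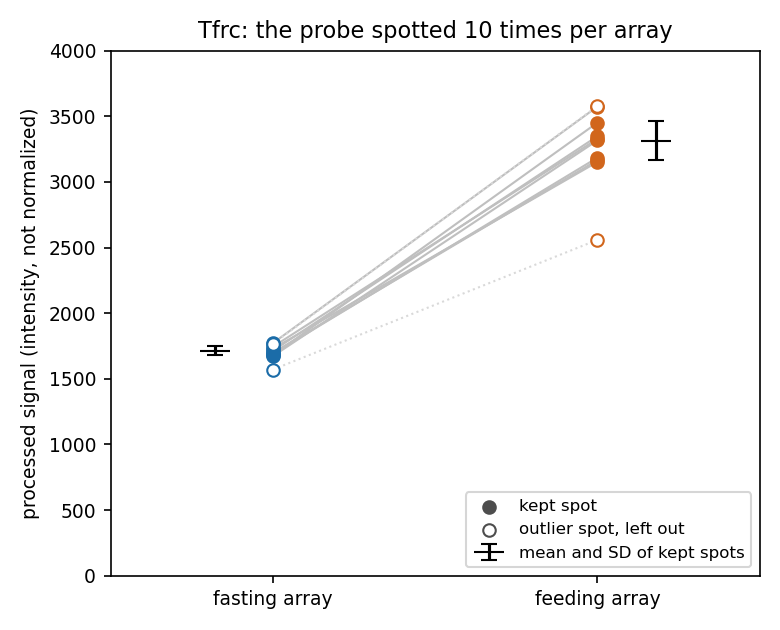
Processed signal (intensity, not normalized) of the 10 spots of the Tfrc probe on the fasting array and on the feeding array, with lines joining the spots at the same position. Filled points are the 8 kept spots, open points the 2 outlier spots and bars the mean and SD of the kept spots, and all 10 spots are higher on the feeding array, with the kept spots between 1673 and 1772 upon fasting and between 3153 and 3575 upon feeding.

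The gene has 2 further probes for the same transcript, which were dim. Their normalized signals were 31.8 upon fasting and 38.5 upon feeding for the brighter and 24.8 and 28.2 for the other, differences of 0.28 and 0.18 beside a replicate-spot SD of 0.20 at this brightness. Before normalization the brighter had 34.3 upon fasting and 35.5 upon feeding, a difference of 0.05, and the other had 26.4 and 26.3. The difference of the brighter was 0.03 after the normexp correction and 0.29 with scaling by the median. The normalized difference of the other is within that SD. The 3 Tfrc probes thus differed by unequal amounts, with a mean of 0.48. Red blood cell precursors are rich in this receptor, so red cell genes are given beside it. Of 8 listed, 6 were measured and 0 were past 2-fold, with a median of -0.03, and their summed signal was 113876 upon fasting and 112794 upon feeding. Most of that sum is Hba-a2, an alpha globin gene, with 87929 upon fasting and 88840 upon feeding. Ermap, an erythroid membrane protein gene, differed by -0.85, with 2185 and 1212, Alas2, the heme synthesis enzyme of the red cell line, by -0.23 and Slc4a1 by -0.0031. The part of red cell precursors in the Tfrc value was not tested. In bulk tissue, fewer cells of a type and less RNA per cell cannot be told apart.

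Trf encodes transferrin itself, a major secreted protein of the liver. Its normalized signal was 127201 on both arrays, since the probe held the same rank on each, and the processed signals were 129798 upon fasting and 124656 upon feeding. The other Trf probe gave 123536 and 122109, a difference of -0.02. Fth1, the ferritin heavy chain that stores iron, had 88749 upon fasting and 89028 upon feeding, which is 0.0045 apart. Both genes were level within the SD of 0.06 in this comparison, with 0.18 for Trf and 0.13 for Fth1 under scaling by the median.

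Slc40a1, the exporter on which hepcidin acts, had the largest difference after Tfrc under quantile normalization, while after the normexp correction that of Hamp2 (-0.36) was larger in size. Its probe gave a processed signal of 30129 on the fasting and of 36594 on the feeding array, and the normalized signals were 29785 and 37171, which is 0.32 higher or 1.25-fold. Of all genes measured 21.4% were higher by as much or more, and the difference was between 0.32 and 0.52 under the other settings. Slc40a1 and Hamp were thus higher in the same pool, by small amounts. In liver, Kupffer cells carry much of the exporter. Of the 10 Kupffer cell and macrophage genes, all measured, 9 were lower upon feeding and 1 of them past 2-fold (C1qa, -1.68), with a median of -0.44 and a summed signal of 106920 upon fasting and 79032 upon feeding. The 8 genes of sinusoidal endothelium, the source of Bmp6, were all lower, none past 2-fold, with a median of -0.33 and a summed signal of 50577 upon fasting and 38565 upon feeding. In such sums bright probes weigh more than dim ones, so they do not measure the amount of a cell type. Under scaling by the median the medians were -0.23 for the Kupffer cell and -0.13 for the endothelial list, and Cd5l (0.10), Vsig4 (0.10), Kdr (0.08) and Fcgr2b (0.02) turned from lower to higher. The part of these cells in the values of Slc40a1 and Bmp6 was not tested.

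**Figure D3:**
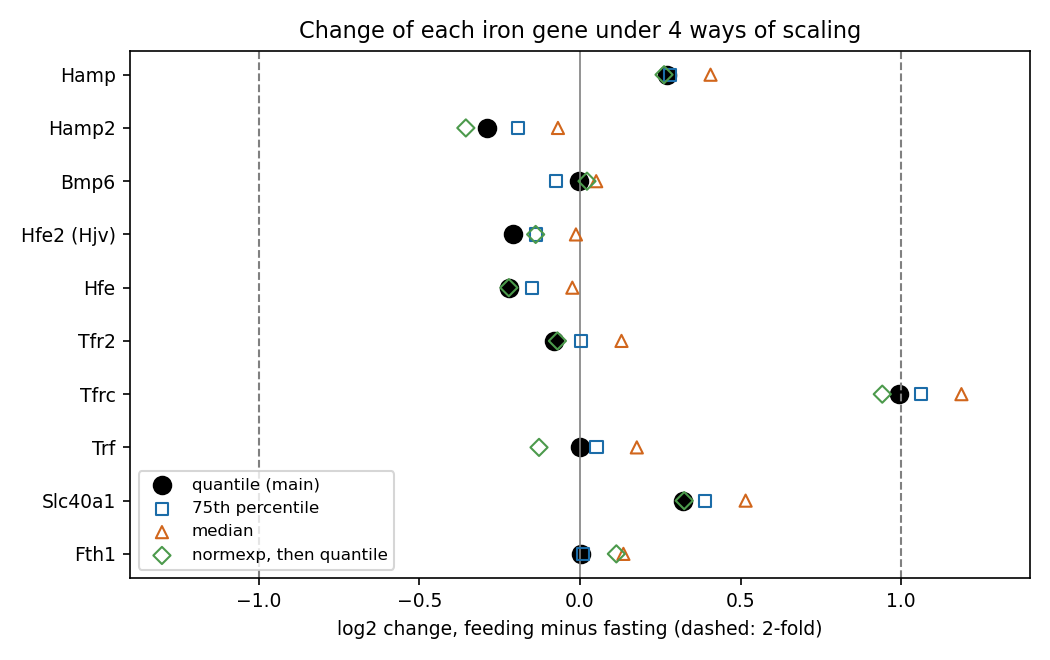
Difference between feeding and fasting (log2) of each of the 10 genes, by its brightest probe, under quantile normalization, a common 75th percentile, a common median, and normexp followed by quantile normalization, with dashed lines at 2-fold. Tfrc sits from 0.94 to 1.19 around the upper line, Hamp and Slc40a1 stay above 0 and Hamp2, Hfe and Hfe2 below 0 in all 4.

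The wider iron network was described with 7 lists, of which 84 of 86 genes were measured. Among these 2 were at least 2-fold higher and 6 at least 2-fold lower upon feeding, or 9.52% beside 7.89% of all genes. Past 2-fold were 9 of them with a common 75th percentile, 10 with a common median and 5 after the normexp correction. Over all genes the counts were 1308, 1359 and 527 in that order, and 1290 under quantile normalization. In the BMP-SMAD list 18 of 19 genes were measured, and only Erfe, the red cell hormone that lowers hepcidin, was not. The median was -0.06, with 0.11 under scaling by the median. Atoh8, a BMP-responsive transcription factor gene, was 3.06-fold lower upon feeding, with 367.4 upon fasting and 120.0 upon feeding. Id1, an inhibitor of differentiation, was 1.95-fold higher, with 2756 and 5383, and was past 2-fold with a common 75th percentile (1.05) or a common median (1.18). Id3 differed by 0.65, and Neo1, the hemojuvelin-binding receptor neogenin, by -0.57.

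Of the 13 other regulators of hepcidin transcription, all measured, 4 were at least 2-fold lower and 0 at least 2-fold higher upon feeding, beside 4.62% and 3.27% of all genes, and after the normexp correction 2 were past 2-fold. The median of the list was -0.50, and it stayed between -0.30 and -0.46 under the other scalings and the normexp correction. Ppargc1a, the coactivator of gluconeogenesis, had 1400 upon fasting and 146.1 upon feeding, which is 9.58-fold lower or -3.26 on the log2 scale. Its other probe gave -3.48, and the normexp correction -2.45. Cebpb, a transcription factor of the acute and the fasting response, had 39404 and 15271, or 2.58-fold lower. Inhbb, the activin B subunit that acts on hepcidin through BMP receptors, differed by -1.29 and Il6ra, the interleukin 6 receptor, by -1.18. After the normexp correction Inhbb and Il6ra were both at -0.92 and not past 2-fold. Socs3, a target and brake of STAT3, differed by -0.94, Stat3 itself by -0.67 (its other probe by -0.90) and Creb3l3, the liver factor CREBH, by -0.50. Hamp was 0.27 higher in the same comparison.

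In the list of iron and heme uptake 14 of 15 genes were measured, with a median of -0.07 (0.08 under scaling by the median). Scara5, a receptor for ferritin, was 2.32-fold lower upon feeding, with 715.4 upon fasting and 309.0 upon feeding, although its other probe gave -0.58 and the normexp correction gave -0.96. Steap4, a ferrireductase, differed by -0.80 and Lrp1, a receptor for heme-bound hemopexin, by -0.71. Slc11a2, the iron importer DMT1, was 0.57 higher by its brighter probe and 2.16 higher by its other probe. The genes of iron storage, chaperones and export (7 of 7 measured) had a median of -0.16 (-0.0069 under scaling by the median), and 0 were past 2-fold. Pcbp1, a chaperone that delivers iron to ferritin, was 0.80 higher and came to 1.01 with scaling by the median, while Ncoa4, the receptor for ferritin breakdown, differed by -0.27 and Heph, a copper ferroxidase, by -0.25. Ftl1, the ferritin light chain, differed by 0.04, within the SD of replicate spots, as Fth1 did.

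Of the 6 genes of cytosolic iron sensing 0 were past 2-fold, with a median of -0.32 (-0.14 under scaling by the median). Ireb2, which encodes the iron regulatory protein IRP2, differed by -0.72, with 335.1 upon fasting and 204.0 upon feeding. Fbxl5, the ligase subunit that degrades it, differed by -0.34, Cdc42bpa by -0.34 and Aco1, which encodes IRP1, by 0.06. Among 15 genes of heme turnover, all measured, the median was 0.04 (0.19 under scaling by the median) and 1 was past 2-fold. This was Alad, the second enzyme of heme synthesis, with 1516 upon fasting and 3194 upon feeding, or 2.11-fold higher. Alas1, which opens the pathway, was 0.41 higher, while Abcb6, Cpox and Fech differed by -0.36, -0.36 and -0.34. The 11 genes of mitochondrial iron and Fe-S clusters had a median of 0.09 (0.29 under scaling by the median). Slc25a37, the mitochondrial iron importer mitoferrin-1, was 2.27-fold higher, with 2258 and 5132, although its other probe was 0.27 higher. Cisd1, an Fe-S protein of the outer membrane, differed by -0.51, Lyrm4, a subunit of the cluster assembly complex, by 0.36 and Slc25a28, the other mitoferrin, by 0.34.

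**Figure D4:**
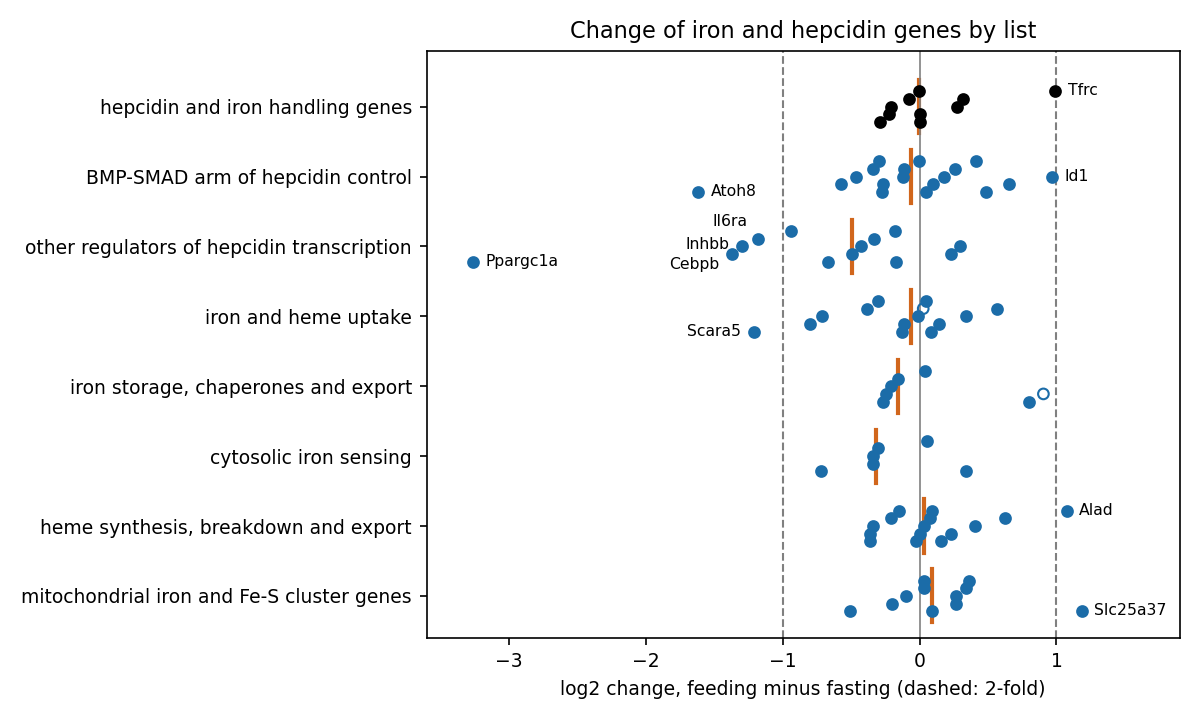
Difference between feeding and fasting (log2) of the 10 genes described here (black) and of the 84 measured genes of 7 further iron and hepcidin lists (blue), with the median of each list as an orange bar, 2-fold as dashed lines, and open points for lower bounds from probes well above background on 1 array only. Genes past or next to the lines are named, and Ppargc1a lies lowest at -3.26 and Slc25a37 highest at 1.18.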

How the data were processed

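Liver RNA was labelled by the authors with Cy3 for the Agilent Whole Mouse Genome array, and spots were quantified in Feature Extraction 11.0.1.1. The deposited values are intensities per spot (processed signal, its error, median signal, local background), not normalized between arrays. The value table of the series equals the mean local background for 44397 of 44397 spots of both arrays (relative tolerance 1e-06) and was not used as expression.

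Here, log2 processed signals of each probe's spots were averaged, leaving out controls and outlier flags, and quantile normalized over all probes, as the study's methods state. Probes were named by RefSeq identifier in the GRCm38.p6 table (27212 of 39402 matched). The array design names mm9, so coordinates are given only for the promoter windows, which are RefSeq's on GRCm38.p6. A gene was taken by its brightest probe. It counted as measured if that probe was well above background on at least 1 array, and as called at 2-fold. Where only 1 array measured the probe, the difference is a lower bound: the other array enters with the probe's own signal or the lowest one well above background there, whichever is higher. The number of arrays limits the precision.

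Members and lists were chosen with earlier results of these data known. Named genes are the members, list genes past 2-fold, and at most 3 others per list with the largest change among those well above background on both arrays. Ftl1, Aco1, Cpox, Fech and the marker genes not past 2-fold were added after their values were seen, and some list genes are not reported here by name. Alternatives were a common 75th percentile or median, normexp with an offset of 50 on the median signal (limma 3.58.1, R 4.3.3), the mean of probes, outlier spots kept, other filters and thresholds of 1.5-fold and 3-fold. Identity was computed with Biopython 1.88. The procedure was tested on simulated data.

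Marker lists not shown above gave medians of -0.16 for 7 stellate cell genes, 0.08 for 5 cholangiocyte genes (Sox9 2.11), 0.54 for 7 lymphocyte and neutrophil genes (Ms4a1 1.21, dim) and -0.05 for hepatocyte genes.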

Additional observations from a re-analysis of the deposited data

How the results depend on the processing

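With 0 of the 10 genes past 2-fold under quantile normalization, the count was 1, Tfrc, with a common 75th percentile, with a common median and at a threshold of 1.5-fold, and 0 in the other alternatives run. Scaling by the median raised the median of all genes by 0.09 and that of the 10 genes to 0.13, and every other alternative run left the latter between -0.02 and 0.01. Over 9 alternatives in scaling, background, probes and filters, Hamp (0.26 to 0.41), Slc40a1 (0.32 to 0.52) and Tfrc (0.48 to 1.19) kept their direction. So did Fth1, Hamp2 (-0.36 to -0.07), Hfe and Hfe2, and Bmp6, Tfr2 and Trf did not. The lowest Tfrc value is the mean of its 3 probes. Of all genes, 1290 were past 2-fold, 527 after the normexp correction, 2020 with no filter on dim probes, 3446 at 1.5-fold and 469 at 3-fold. Signal over background limits the 2 dim Tfrc probes. An alternative on the series value table was not run, as that table holds local background. No paired analysis was possible because each group has 1 array.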
